A study of Homo sapiens with 12 samples.

Results

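The HOXB genes of SNU638 gastric cancer cells were followed across a control hairpin line and 3 lines with hairpins against SKA2. The members were chosen by their gene symbols: every gene of the deposited table named HOXB followed by a number was taken, which gave 10 of the 17303 genes. The cluster itself was picked for description after earlier results of these data were known, so its counts of changed genes are given as a description. Of the 10 genes, 9 were expressed enough to be tested, and HOXB1 was not, with at most 1 read in any library.

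SNU638 is an established human gastric cancer cell line, and SKA2 is part of the outer kinetochore machinery that keeps chromosomes attached to microtubule ends during mitosis. The groups were sh-SKA2-1, sh-SKA2-2 and sh-SKA2-3, labelled as SKA2 knockdown, and sh-control, labelled as wild type. All 4 lines had been infected with lentivirus and selected with puromycin, and each gave 3 bulk RNA-seq libraries, 12 in all. Separate cultures are not mentioned in the labels, nor whether a line was 1 clone or a pool. A p-value therefore reflects the spread among the libraries of a line, pooled over the 4 lines, and those libraries may be technical repeats.

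HOX genes encode homeodomain transcription factors that give cells their position along the head-to-tail axis of the embryo. They lie in clusters named HOXA to HOXD, which arose by duplication of an ancestral cluster, and genes at one end of a cluster are used towards the head while genes at the other end are used further towards the tail. Members of the central and posterior groups remain active in the adult gut and in tumours, where the clusters are held open or closed by Trithorax and Polycomb proteins.

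In GENCODE v29 on GRCh38 the 10 HOXB genes lie on chromosome 17 between positions 48528526 and 48729178, a span of 201 kb, and all 10 are read from the minus strand. The anterior gene HOXB1 occupies the low end at 48528526 to 48531001. HOXB2 to HOXB9 follow in numerical order, although the annotated span of HOXB7, 48607227 to 48633572, encloses HOXB8 (48611377 to 48614939) and HOXB9 (48621159 to 48626356). HOXB13, the most posterior gene, lies at 48724763 to 48729178, beyond a gap of 98.4 kb after HOXB9. SKA2 is on the same chromosome, 10.4 Mb away.

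**Figure D1:**
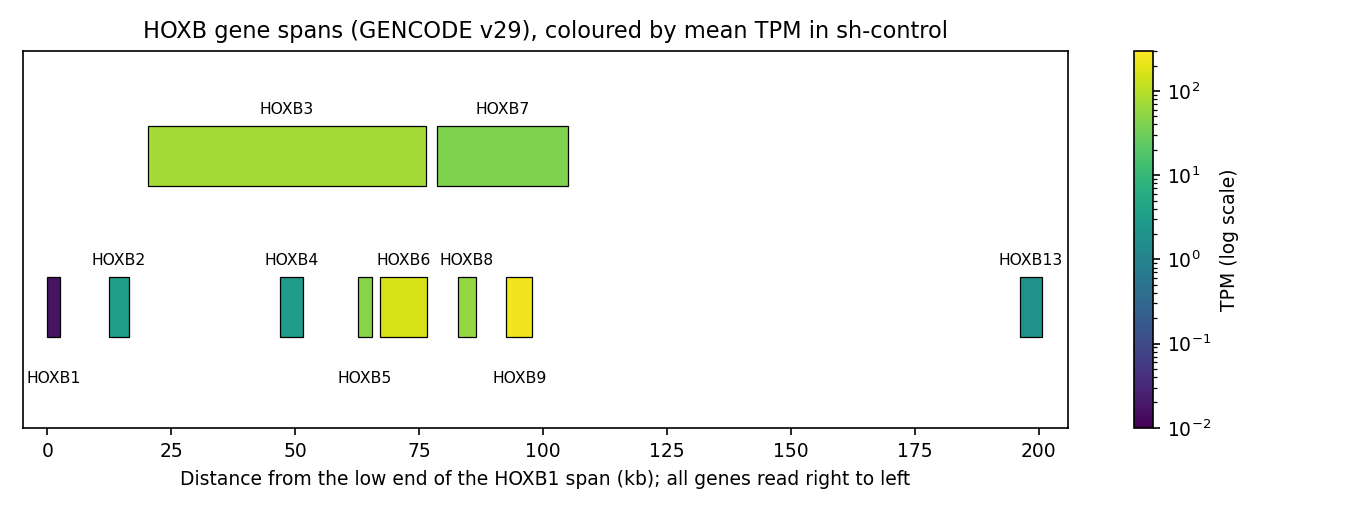
Map of the 10 HOXB gene spans in GENCODE v29, with distance in kb from the low end of HOXB1 on the horizontal axis and mean TPM of the 3 sh-control libraries as colour on a log scale. The spans of HOXB3 and HOXB7 are drawn in an upper row because they enclose other genes, and HOXB9 and HOXB6 are the brightest, at 237 and 161 TPM.

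HOX transcripts resemble each other most in the homeobox, the stretch that codes for the DNA-binding homeodomain, and a read from it may fit several members. The sequences below are the 42 bases that code for the recognition helix of the homeodomain, in the GENCODE v29 coding sequences of 4 of the genes on which the comparisons turn, in genome order from HOXB6. Capitals mark the 18 bases that code for the conserved core of that helix.
HOXB6: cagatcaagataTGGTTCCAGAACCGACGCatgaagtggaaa
HOXB7: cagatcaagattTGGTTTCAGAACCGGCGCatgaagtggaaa
HOXB9: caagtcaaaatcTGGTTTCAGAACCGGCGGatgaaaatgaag
HOXB13: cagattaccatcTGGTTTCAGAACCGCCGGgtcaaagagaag

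These stretches lie, in the same order, at chr17:48596482-48596523, chr17:48607917-48607958, chr17:48622930-48622971 and chr17:48726829-48726870, all on the minus strand of GRCh38. The HOXB6 and HOXB7 stretches differ by 3 bases and code for the same residues. Over the whole homeobox HOXB6 and HOXB7 matched at 160 of 180 bases and at 56 of 60 residues (93.3%), the highest identity of any pair of members. HOXB13 matched the other members at 41.7% to 51.7% of residues, the highest value being with HOXB9.

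Among protein-coding transcripts, exact identity over a longer run was limited. The longest run that HOXB7 shared with any of the 38 other HOX genes was 51 bases, with HOXB6, and that of HOXB9 was 40 bases, with HOXD9. HOXB8 shared at most 38 bases, with HOXD4. The longest among the members was 65 bases, between HOXB4 and HOXB3, which also share exons on the same strand. Transcripts of other types were not searched for runs. The overlaps given next include them, so longer shared runs can occur there.

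Overlapping annotation in GENCODE v29, which may differ from the submitters' transcript set, makes some members uncertain. All expected counts of the HOXB genes were whole numbers, so these values show no read split between members. Whole values were common, at 84% to 86% of all genes in each library, and do not show that each read went to the right member. No strand-marking step is described in the library protocol, so reads of a gene and of an antisense gene over it cannot be told apart. HOXB6 shared 22.1% of its transcript with HOXB3 on the same strand and 15.6% with the antisense gene HOXB-AS3. HOXB4 shared 12.8% with the same-strand gene AC103702.1 and 4.23% with HOXB3. HOXB2, HOXB3 and HOXB5 shared between 1.83% and 8.89% with HOXB-AS1 or HOXB-AS3. HOXB7, HOXB8, HOXB9 and HOXB13 shared no exon base with another annotated gene, so their values are the least affected by such overlap. Of 8 antisense and non-coding neighbours that were looked up, 1 was in the table (PRAC2), and it was too low to be tested.

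Each library held between 14693343 and 16739155 expected counts, and 12868 genes (74.4% of the table) were tested. SKA2 averaged 24.0 ± 1.86, 25.3 ± 1.93 and 26.6 ± 1.57 CPM in sh-SKA2-1, sh-SKA2-2 and sh-SKA2-3, against 120 ± 4.84 CPM in sh-control (SD, n = 3 each; CPM, counts scaled to library size after TMM). Its log2 fold changes were -2.33, -2.25 and -2.18, with adjusted p of 6.09e-09, 1.98e-09 and 8.24e-09 (edgeR, quasi-likelihood, Benjamini-Hochberg adjustment over all genes tested, as throughout). Libraries also differed in how strongly levels depended on transcript length, which is given below as the slope over genes of a library's log2 level, relative to the mean of all libraries, on log2 length. The slope was 0.0856 to 0.111 in sh-SKA2-1, 0.149 to 0.207 in sh-SKA2-2, -0.173 to 0.095 in sh-SKA2-3 and -0.328 to -0.0544 in sh-control, where the highest values of the last 2 lines belonged to replicate 1. Of 8 epithelial markers, 7, 6 and 7 reached 1 TPM in the 3 hairpin lines and 7 in sh-control, with a summed level of 3210 to 3340, 1630 to 1740 and 2840 to 3170 TPM against 3380 to 3770 TPM. Fibroblast, endothelial and leukocyte markers summed to at most 2.96, 0.3 and 30.8 TPM in any library. CD68 was the only leukocyte marker and COL1A1 the only fibroblast marker to average at least 1 TPM in a line. DCN and COL1A2 were at 0 in every sh-control library, but not DCN in all of sh-SKA2-3 nor COL1A2 in all of sh-SKA2-2.

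HOXB3 and HOXB5 to HOXB9 were transcribed at high levels in SNU638 cells, and HOXB1, HOXB2, HOXB4 and HOXB13 at low levels. Per transcript length, HOXB9 was the highest in sh-control at 237 ± 15.4 TPM, and HOXB6 followed at 161 ± 3.86 TPM (SD, n = 3 each; TPM, a measure scaled to transcript length and to the same total in each library). HOXB9 is the most posterior gene of the main block and HOXB6 belongs to its central group. HOXB3, an anterior gene, averaged 73.9 ± 18.5 TPM in sh-control and its libraries overlapped those of HOXB8, at 56.1 TPM. HOXB5 and HOXB7 followed at 45.6 and 41.6 TPM in sh-control without overlap between any of these 3 neighbours. HOXB2 at 3.29 TPM overlapped HOXB4 at 2.76 TPM, HOXB13 lay at 1.75 TPM, and HOXB1 was listed between 0 and 0.05 TPM in sh-control.

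The hairpin lines kept the same high and low genes, with changes of place among neighbours. In sh-SKA2-1 the order was that of the control down to HOXB8, at 196 TPM for HOXB9, 145 for HOXB6, 84.2 for HOXB3 and 55.6 for HOXB8, the last overlapping HOXB5 at 53.7 TPM. HOXB6 led in sh-SKA2-2 at 153 TPM but overlapped HOXB9 at 145 TPM, and HOXB7 at 30.2 TPM overlapped HOXB5 at 26.7 TPM. In sh-SKA2-3 HOXB9 led again at 167 TPM, followed by HOXB6 at 133 TPM and HOXB3 at 72.6 TPM. HOXB2, HOXB4 and HOXB13 reached at most 5.65 TPM in any library of the 4 lines, and HOXB1 did not pass 0.07 TPM. HOXB1, an anterior gene active in the hindbrain, had 1, 0 and 3 reads over the 3 libraries of sh-SKA2-1, sh-SKA2-2 and sh-SKA2-3, against 1 read in sh-control, which is at or under the floor of 3 counts, so no fold was formed.

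**Figure D2:**
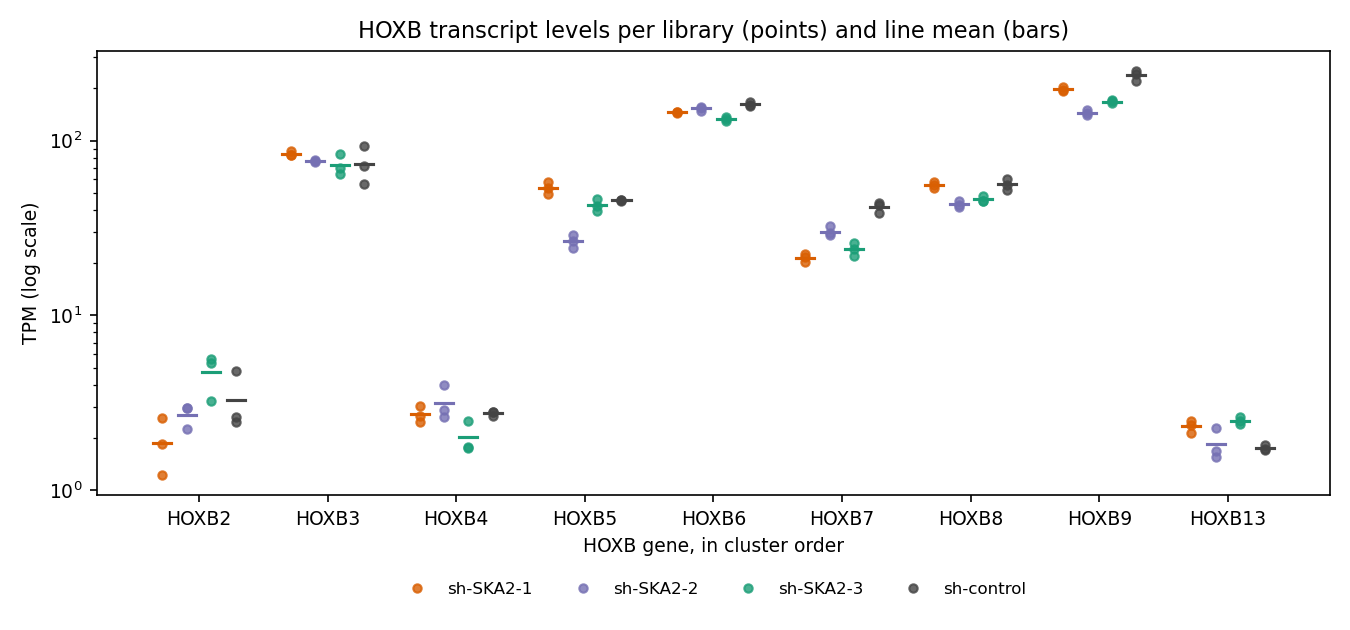
TPM (log scale) of the 9 tested HOXB genes in cluster order, with 1 point per library and a bar at the mean of each line, sh-SKA2-1, sh-SKA2-2, sh-SKA2-3 and sh-control running left to right. HOXB6, HOXB7 and HOXB9 show all hairpin libraries below all control libraries, and HOXB2, HOXB4 and HOXB13 lie far below the other genes.

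The summed level of the 10 genes was lower in each hairpin line than in the control. It was 553.3 to 579.4 TPM in sh-SKA2-1, 475 to 493.4 TPM in sh-SKA2-2 and 478.8 to 504.8 TPM in sh-SKA2-3, against 592.7 to 654.1 TPM in sh-control. No hairpin library reached the lowest control library. HOXB9 made up 34.8% to 34.9%, 29.6% to 30.3% and 33.2% to 34.1% of that sum in the 3 hairpin lines, against 37.1% to 38.6% in sh-control.

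With each of the 3 hairpins, 5 of the 9 tested HOXB genes were called lower than in sh-control and none was called higher. The call rule was an adjusted p under 0.05. In sh-SKA2-1 the rule called 31.5% of all tested genes lower and 31.5% higher. In sh-SKA2-2 it called 37.8% lower and 36.6% higher, and in sh-SKA2-3 24% lower and 23.6% higher. The median log2 fold change of the 9 genes was -0.41, -0.68 and -0.41, beside 0.01, -0.02 and 0.01 over all tested genes. The 3 comparisons share the same control libraries, so their counts are not independent of each other. HOXB6, HOXB7, HOXB8 and HOXB9 were called lower with all 3 hairpins, and the fifth gene differed: HOXB2 in sh-SKA2-1, HOXB5 in sh-SKA2-2 and HOXB4 in sh-SKA2-3. In bulk RNA, fewer cells that express a gene and less RNA per cell cannot be told apart.

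**Figure D3:**
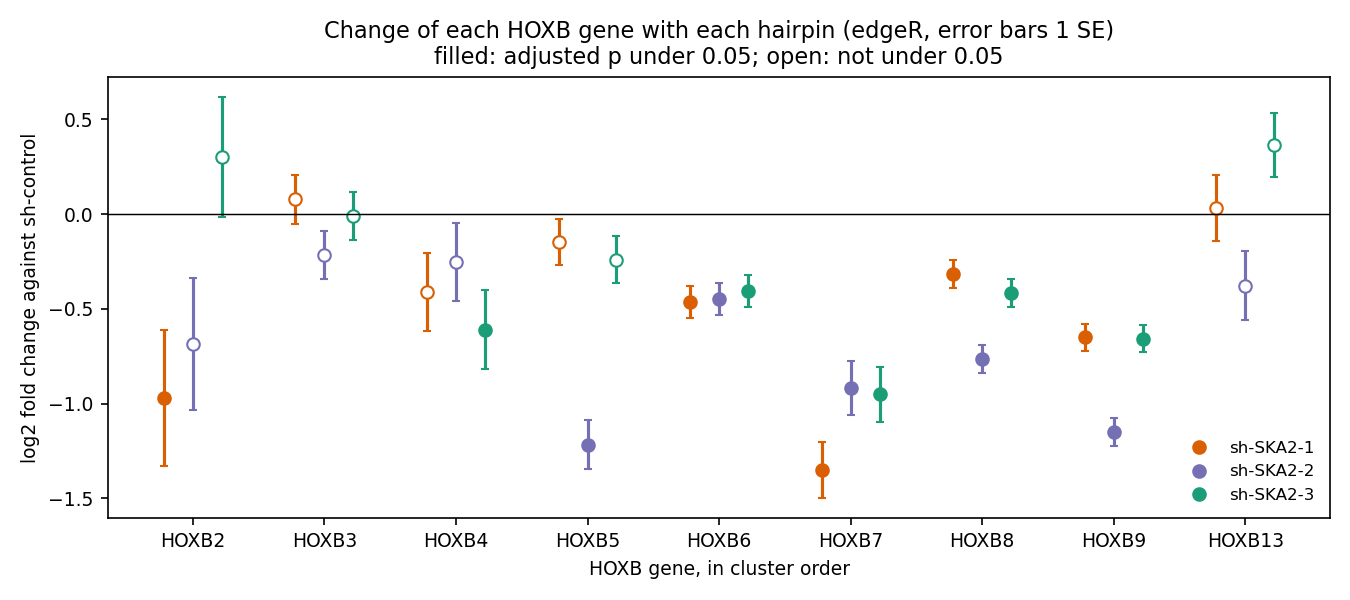
Log2 fold change of each tested HOXB gene against sh-control for each hairpin (edgeR), with error bars of 1 SE, filled points for adjusted p under 0.05 and open points otherwise. HOXB6 to HOXB9 are filled and below 0 with every hairpin, while HOXB3 and HOXB13 are open with every hairpin.

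HOXB9, the posterior factor of the main block, fell with every hairpin. Its level was 251, 237 and 241 CPM in sh-SKA2-1, 173, 171 and 172 CPM in sh-SKA2-2 and 220, 250 and 256 CPM in sh-SKA2-3, against 352, 398 and 394 CPM in sh-control. All 9 hairpin libraries lay below all 3 control libraries, and the sh-SKA2-2 libraries lay below those of the other hairpins. Its log2 fold changes were -0.65 ± 0.07, -1.15 ± 0.07 and -0.66 ± 0.07 (SE), which are levels 36.3%, 54.9% and 36.6% lower, with adjusted p of 2.76e-05, 9.39e-08 and 2.59e-05 by edgeR. Leaving out each of the 12 libraries in turn kept the sh-SKA2-2 value between -1.21 and -1.12.

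HOXB7, a central-group gene whose product is known as an activator of growth factor genes in tumours, also fell with every hairpin. It stood at 13.2, 11.7 and 12.6 CPM in sh-SKA2-1, 16.6, 16.5 and 17.5 CPM in sh-SKA2-2 and 13.3, 18.3 and 17.8 CPM in sh-SKA2-3, against 25.4, 33.4 and 36.9 CPM in sh-control. The hairpin and control libraries did not overlap. The log2 fold changes were -1.35 ± 0.15, -0.92 ± 0.14 and -0.95 ± 0.14 (SE), or 60.8%, 47.1% and 48.3% lower, with adjusted p of 2.74e-05, 0.000123 and 0.000298 by edgeR. Within both sh-SKA2-3 and sh-control the lowest library was replicate 1, which also had the highest length slope of its line.

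HOXB8, a posterior central gene best known for holding myeloid progenitors in an immature state, was lower by smaller amounts. It had 69.4, 66.8 and 67.3 CPM in sh-SKA2-1, 49.8, 52 and 47.3 CPM in sh-SKA2-2 and 56.8, 67.1 and 65.8 CPM in sh-SKA2-3, against 80.6, 85.7 and 86.9 CPM in sh-control. No hairpin library reached a control library on this scale. The log2 fold changes were -0.32 ± 0.07, -0.76 ± 0.08 and -0.42 ± 0.07 (SE), with adjusted p of 0.00351, 3.17e-06 and 0.000921 by edgeR. Per length, sh-SKA2-1 at 53.53 to 57.67 TPM overlapped sh-control at 52.34 to 60.05 TPM. For that hairpin limma on log2(TPM + 1) gave a log2 change of -0.01 (adjusted p = 0.874), beside a median of 0.29 over all genes on that scale.

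HOXB6, a central gene used in limb and blood development, fell by nearly the same amount with each hairpin on counts. Its libraries held 126, 123 and 128 CPM in sh-SKA2-1, 132, 123 and 125 CPM in sh-SKA2-2 and 121, 136 and 135 CPM in sh-SKA2-3, against 153, 173 and 193 CPM in sh-control. Again the hairpin libraries lay below all control libraries. By edgeR the log2 changes were -0.46, -0.45 and -0.41 (SE 0.08 in each line; adjusted p = 0.000789, 0.000459 and 0.00234). In sh-SKA2-2 the call depended on length: with a per-library length correction the log2 change was -0.06 (adjusted p = 0.266), and limma on log2(TPM + 1) gave -0.08 (adjusted p = 0.134). On log2(TPM + 1) the changes in sh-SKA2-1 and sh-SKA2-3 were -0.15 and -0.27, so the amounts differed more between hairpins on that scale. The median of all genes there also differed, at 0.29, 0.33 and 0.12 in sh-SKA2-1, sh-SKA2-2 and sh-SKA2-3.

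HOXB5, a central gene that acts in the gut's nerve cell precursors and in the lung, was called lower in sh-SKA2-2. Its levels were 49.6, 44.7 and 42.4 CPM in sh-SKA2-1, 22.6, 19.9 and 22.8 CPM in sh-SKA2-2 and 35.1, 47.5 and 45.6 CPM in sh-SKA2-3, against 44.4, 51.1 and 56.0 CPM in sh-control. The sh-SKA2-2 libraries stood apart below all others, and those of the other hairpins overlapped the control. The log2 fold change in sh-SKA2-2 was -1.22 ± 0.13 (SE), a level 56.9% lower, with adjusted p = 5.21e-06 by edgeR. In sh-SKA2-1 and sh-SKA2-3 it was -0.15 and -0.24, with adjusted p of 0.307 and 0.126. With the replicate number as a block in a fit of only sh-SKA2-3 and sh-control, HOXB5 was called lower in sh-SKA2-3 (-0.24, adjusted p = 0.000342 by edgeR). That fit was chosen after seeing the data, and 71.4% of all genes tested in it were called. The sh-SKA2-1 value changed sign on the TPM scale, where limma gave 0.23 (adjusted p = 0.0352) while the median of all genes there moved by 0.29, so that HOXB5 lay slightly below that median.

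HOXB3, an anterior gene with roles in the hindbrain and in blood stem cells, was not called with any hairpin. It had 159, 156 and 155 CPM in sh-SKA2-1, 130, 128 and 125 CPM in sh-SKA2-2 and 172, 139 and 131 CPM in sh-SKA2-3, against 178, 145 and 121 CPM in sh-control. The control libraries spanned the values of all 9 hairpin libraries. By edgeR its log2 changes of 0.08, -0.22 and -0.01 had an SE of 0.13 each and adjusted p of 0.619, 0.147 and 0.957. In sh-SKA2-3 and in sh-control alike replicate 1 was the highest library, the opposite of HOXB7. HOXB3 has the longest transcript of the members in the counting, and with the length correction the sh-SKA2-2 value became -0.29 (adjusted p = 0.0203).

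HOXB2, HOXB4 and HOXB13 rested on few reads, between 14 and 78 per library. HOXB4, known for expanding blood stem cells, had 2.29, 2.79 and 2.47 CPM in sh-SKA2-1, 2.42, 2.57 and 3.43 CPM in sh-SKA2-2 and 1.69, 2.78 and 2.09 CPM in sh-SKA2-3, against 2.79, 3.49 and 3.76 CPM in sh-control. In sh-SKA2-3 its log2 fold change was -0.61 ± 0.21 (SE, adjusted p = 0.032 by edgeR), and the libraries of this hairpin lay just below those of the control. This call was lost in 4 of 12 fits that left out 1 library, those without replicate 1 (-0.46) or replicate 3 (-0.58) of sh-SKA2-3 and without replicate 2 (-0.58) or replicate 3 (-0.52) of sh-control. With the length correction the log2 change was -0.48 (adjusted p = 0.0508). The changes in sh-SKA2-1 and sh-SKA2-2 were -0.41 and -0.25, with adjusted p of 0.101 and 0.277.

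HOXB2, an anterior gene that patterns the hindbrain, was the lowest tested member in sh-SKA2-1. It had 1.96, 0.908 and 1.4 CPM in sh-SKA2-1, 2.22, 1.48 and 1.52 CPM in sh-SKA2-2 and 2.47, 3.86 and 3.98 CPM in sh-SKA2-3, against 1.96, 2.2 and 4.21 CPM in sh-control. The control libraries themselves ranged widely, and sh-SKA2-1 replicate 1 was level with control replicate 1. The log2 fold change in sh-SKA2-1 was -0.97 ± 0.36 (SE, adjusted p = 0.0335 by edgeR), and it was -0.55 (adjusted p = 0.189) without control replicate 3. Without sh-SKA2-1 replicate 2 or replicate 3 it was -0.75 or -0.96, again not called, and with the length correction -0.62 (adjusted p = 0.09). In sh-SKA2-2 and sh-SKA2-3 the changes were -0.68 and 0.30, with adjusted p of 0.0948 and 0.452. Leaving out 1 library in turn gave -0.90 to -0.26 in sh-SKA2-2 and 0.10 to 0.73 in sh-SKA2-3, and the sh-SKA2-2 change was called without control replicate 1 (-0.89, adjusted p = 0.0385 by edgeR).

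HOXB13, the posterior-most gene, known as a marker of prostate and hindgut cells, was not called against the control with all 12 libraries in the model. Its values were 3.53, 3.11 and 3.74 CPM in sh-SKA2-1, 2.28, 3.22 and 2.31 CPM in sh-SKA2-2 and 3.71, 4.43 and 4.93 CPM in sh-SKA2-3, against 2.91, 3.62 and 3.64 CPM in sh-control. The sh-SKA2-3 libraries lay just above all control libraries. Log2 fold changes were 0.03, -0.38 and 0.36 (SE 0.17, 0.18 and 0.17), with adjusted p of 0.887, 0.0781 and 0.0977 by edgeR. The sh-SKA2-2 change was called lower by edgeR without control replicate 1 (-0.48, adjusted p = 0.0421) and without sh-SKA2-2 replicate 2 (-0.56, adjusted p = 0.0234). In the blocked fit of only sh-SKA2-3 and sh-control HOXB13 was called higher in sh-SKA2-3 (0.36, adjusted p = 0.0467 by edgeR). That fit was chosen after seeing the data, and 71.4% of all genes tested in it were called. On log2(TPM + 1) limma called it higher in sh-SKA2-1 (0.28, adjusted p = 0.0314) and sh-SKA2-3 (0.35, adjusted p = 0.0175), beside medians of 0.29 and 0.12 over all genes on that scale.

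The hairpins were also set against each other. The difference itself is between 2 hairpin lines, but its p-value uses a spread estimated over all 12 libraries, control included. In sh-SKA2-2 against sh-SKA2-1, 3 of the 9 genes were called lower and 1 higher, where 29.4% of all tested genes were called lower and 28.2% higher. HOXB5, HOXB9 and HOXB8 were lower in sh-SKA2-2, by log2 differences of -1.07 ± 0.13, -0.50 ± 0.07 and -0.45 ± 0.08 (SE), with adjusted p of 2.44e-05, 9.96e-05 and 0.000323 by edgeR. HOXB7 was higher in sh-SKA2-2 by 0.43 ± 0.15 (adjusted p = 0.0281), a call lost when replicate 2 or 3 of sh-SKA2-1, or any 1 library of sh-SKA2-2, was left out (0.40 to 0.47). HOXB6 differed by 0.01, with a 95% interval of -0.17 to 0.20, and was called higher in sh-SKA2-2 with the length correction (0.13, adjusted p = 0.0327).

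Between sh-SKA2-3 and sh-SKA2-2, 5 genes were called higher in sh-SKA2-3 and none lower, where 33.4% of all tested genes were called higher and 31.9% lower. They were HOXB2 (0.99 ± 0.34), HOXB5 (0.98 ± 0.13), HOXB13 (0.74 ± 0.18), HOXB9 (0.49 ± 0.07) and HOXB8 (0.35 ± 0.08), as log2 differences with SE. Their adjusted p by edgeR were 0.0233, 4.26e-05, 0.0031, 9.53e-05 and 0.00169. HOXB7 differed by -0.03 between these hairpins, with a 95% interval of -0.36 to 0.29 on counts, but was called lower in sh-SKA2-3 on log2(TPM + 1) (-0.32, adjusted p = 0.00789 by limma) and with the length correction (-0.38, adjusted p = 0.00106). HOXB4 and HOXB6 were called lower on both of these scales too, at -0.47 and -0.20 on log2(TPM + 1), beside -0.22 for the median over all genes. The HOXB8 call was lost on log2(TPM + 1), at 0.09 (adjusted p = 0.235), where HOXB9 was at 0.21 (adjusted p = 0.00562). The HOXB2 difference was not called without replicate 2 or 3 of either line (0.87 to 0.90).

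Between sh-SKA2-3 and sh-SKA2-1, 1 gene was called higher in sh-SKA2-3 and none lower, where 4.75% of all tested genes were called higher and 4.7% lower. It was HOXB2, at 1.27 ± 0.35 (SE, adjusted p = 0.0445 by edgeR), and the call was lost in 9 of the 12 fits that left out 1 library, with values of 1.05 to 1.57 over those 12 fits. HOXB9 differed by -0.01, with a 95% interval of -0.16 to 0.15, and HOXB6 by 0.06, with an interval of -0.13 to 0.24. HOXB7 differed by 0.40, with an interval of 0.07 to 0.73 and an adjusted p of 0.107. On log2(TPM + 1) limma called HOXB5 (-0.32, adjusted p = 0.0379), HOXB8 (-0.26, adjusted p = 0.0304) and HOXB9 (-0.23, adjusted p = 0.024) lower in sh-SKA2-3, beside -0.19 for the median over all genes. With the length correction none of these was called (-0.23, -0.16 and -0.06, adjusted p = 0.0778, 0.0675 and 0.466).

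Transcript length moved the size of several HOXB changes. After line means were taken off, log2 CPM of HOXB6, HOXB7, HOXB8 and HOXB9 correlated with the length slope at -0.923, -0.939, -0.84 and -0.94. HOXB3 correlated at 0.944, and the other tested members lay between -0.844 and -0.553. No p is attached to these values over 12 libraries. In sh-SKA2-2 the log2 fold change of HOXB7 was -0.92 on counts, -0.38 with the length correction and -0.45 on log2(TPM + 1). HOXB9 in the same line was -1.15, -0.98 and -0.71, and HOXB5 was -1.22, -0.82 and -0.75. In sh-SKA2-1, HOXB7 was -1.35, -0.95 and -0.93 on the 3 scales. HOXB7 and HOXB9 were called lower with each hairpin on all 3 scales. On the TPM scale 3, 4 and 4 of the 9 genes were called lower and 2, 0 and 1 higher, and with the length correction 4, 5 and 4 lower and none higher. Of all tested genes, 13.5%, 20.9% and 16.1% were called lower and 50.2%, 53% and 25% higher on the TPM scale, and 30.5%, 37% and 28% lower and 30%, 36.9% and 27.4% higher with the length correction. On the TPM scale the median of all tested genes moved by 0.29, 0.33 and 0.12 in sh-SKA2-1, sh-SKA2-2 and sh-SKA2-3, so values there lie above those on counts as a whole. The part of RNA quality or library making in the slopes was not tested.

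**Figure D4:**
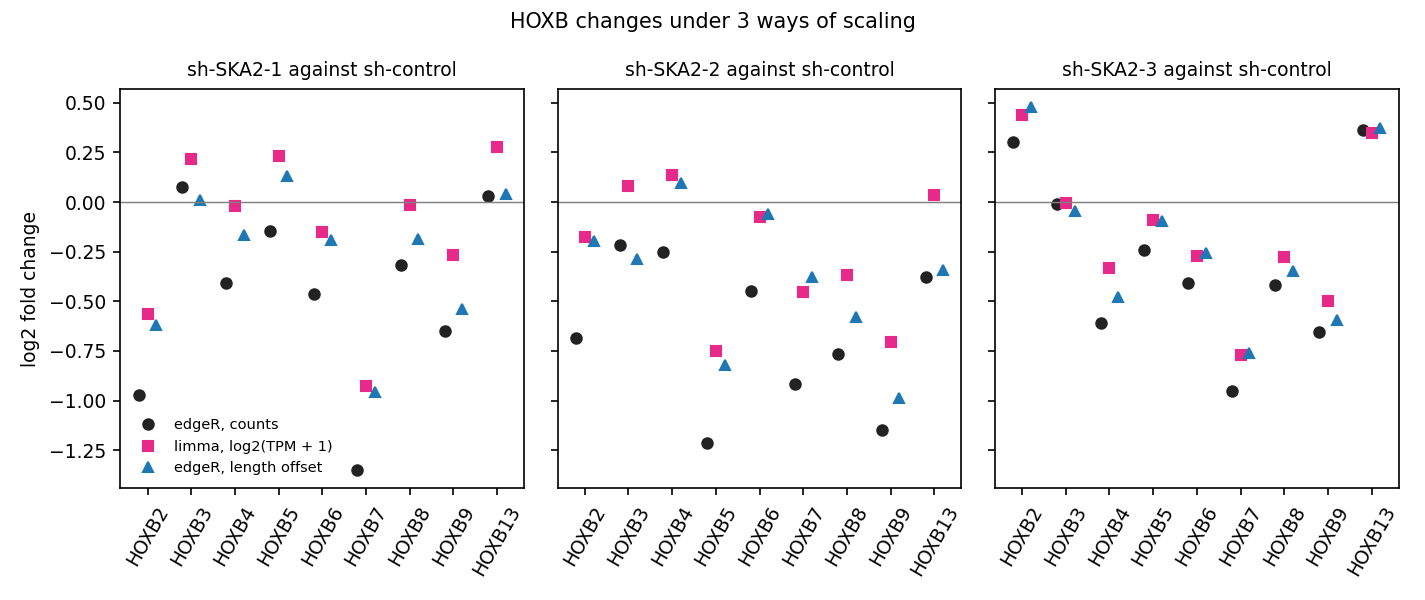
Log2 fold change of each tested HOXB gene against sh-control on 3 scales, with 1 panel per hairpin: edgeR on counts (circles), limma on log2(TPM + 1) (squares) and edgeR with a per-library length correction (triangles). HOXB7 and HOXB9 lie below 0 on all 3 scales with every hairpin, while HOXB5 in sh-SKA2-1 lies at -0.15 on counts and at 0.23 on log2(TPM + 1).

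The cluster also codes for miRNAs that are known to target HOX transcripts. They were not measured here, since the libraries held polyadenylated mRNA. MIR196A1 lies within the annotated span of HOXB7 and MIR10A within that of HOXB4, and their mature sequences are shown, from RefSeq on GRCh38.p14, with the seed (bases 2 to 8) in capitals, followed by 3′ UTR stretches of HOXB8 and HOXB7 from GENCODE v29 on GRCh38, where capitals mark the letters that match the miR-196a seed.
hsa-miR-196a-5p: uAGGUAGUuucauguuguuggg
hsa-miR-10a-5p: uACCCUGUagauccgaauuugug
HOXB8 stretch: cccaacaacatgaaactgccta
HOXB7 stretch: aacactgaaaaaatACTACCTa

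The miRNAs lie at chr17:48632532-48632553 and chr17:48579904-48579926, and the stretches at chr17:48612770-48612791 and chr17:48607614-48607635, all on the minus strand. The HOXB8 stretch paired with miR-196a-5p at 21 of 22 bases by Watson-Crick pairs and at the remaining 1 by a G:U pair, which falls in the seed, so that it holds no exact seed match. The HOXB7 stretch held the seed match ACTACCT and paired at 13 bases. Searched on the transcript strand, this match was present in the 3′ UTRs of HOXB1, HOXB6, HOXB7 and HOXB13, and in 1201 of 19555 3′ UTRs overall (6.14%). The miR-10a-5p match ACAGGGT was present in HOXB3 and in 2088 of 19555 (10.7%). These matches describe the letters and do not show that a site was used in these cells.

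Across the 12 libraries HOXB8 and HOXB9 followed each other most closely. The Pearson correlation of log2 CPM was 0.976 between HOXB8 and HOXB9 and 0.946 between HOXB6 and HOXB7. HOXB5 correlated with HOXB8 at 0.898 and with HOXB9 at 0.848, while HOXB13 correlated with HOXB9 at 0.416. HOXB3 and HOXB7 correlated at -0.311. These values describe 12 libraries from 4 lines that share their depth and length effects, and no p is attached to them.

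Genes outside the cluster with the most similar pattern, by the same correlation over 12 libraries, were found for each member. For HOXB9 they were ENTPD2 (0.996), SHMT2 (0.996) and ITPKA (0.994), and for HOXB8 LARGE2 (0.991), TMEM129 (0.99) and CPNE7 (0.989). MT1E (0.991), MICAL1 (0.99) and SLC3A2 (0.987) were nearest to HOXB7, and RALY (0.99), PPM1G (0.987) and CIZ1 (0.986) to HOXB6. HOXB5 was nearest to GRK2 (0.989), D2HGDH (0.988) and TRIM51 (0.987). The values were lower for HOXB3 (RBM18 0.954, TMEM209 0.939, ITGA2 0.939), HOXB13 (HAPLN3 0.942, MGST2 0.931, MED27 0.931), HOXB2 (ZCCHC17 0.939, RNF113A 0.926, MRPS33 0.923) and HOXB4 (TBC1D10A 0.907, TSPAN15 0.898, RAP1GAP 0.865).

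The HOXA genes, the counterpart cluster on another chromosome, moved the other way from the HOXB genes. Of 10 tested HOXA genes, 9, 7 and 10 were called higher in sh-SKA2-1, sh-SKA2-2 and sh-SKA2-3 and none lower, with median log2 fold changes of 1.57, 1.04 and 1.51, beside the HOXB medians of -0.41, -0.68 and -0.41. Of all tested genes, 31.5%, 36.6% and 23.6% were called higher and 31.5%, 37.8% and 24% lower. The counts of each gene list below are also to be read against these shares, and TPM counts against those given above for that scale. HOXA13, the HOXA paralogue of HOXB13, averaged 56.5, 45.7 and 55.1 CPM in the 3 hairpin lines, against 10.2 CPM in sh-control. By edgeR it was higher by 2.46, 2.16 and 2.43 on the log2 scale (SE 0.09 in each line; adjusted p = 6.35e-09, 5.15e-09 and 8.24e-09). HOXA3 and HOXA10 were called higher with each hairpin (1.63, 1.93 and 1.29, and 1.55, 1.20 and 1.66), while HOXA5 was higher in sh-SKA2-1 (2.21) and sh-SKA2-3 (1.93) and was -0.07 in sh-SKA2-2 (adjusted p = 0.577). In sh-SKA2-2 HOXA5 was called higher with the length correction (0.38, adjusted p = 0.000884) and on log2(TPM + 1) (0.35, adjusted p = 0.00286). With the length correction the HOXA medians were 1.7, 1.21 and 1.57 and the HOXB medians -0.19, -0.34 and -0.26, so neither changed sign.

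**Figure D5:**
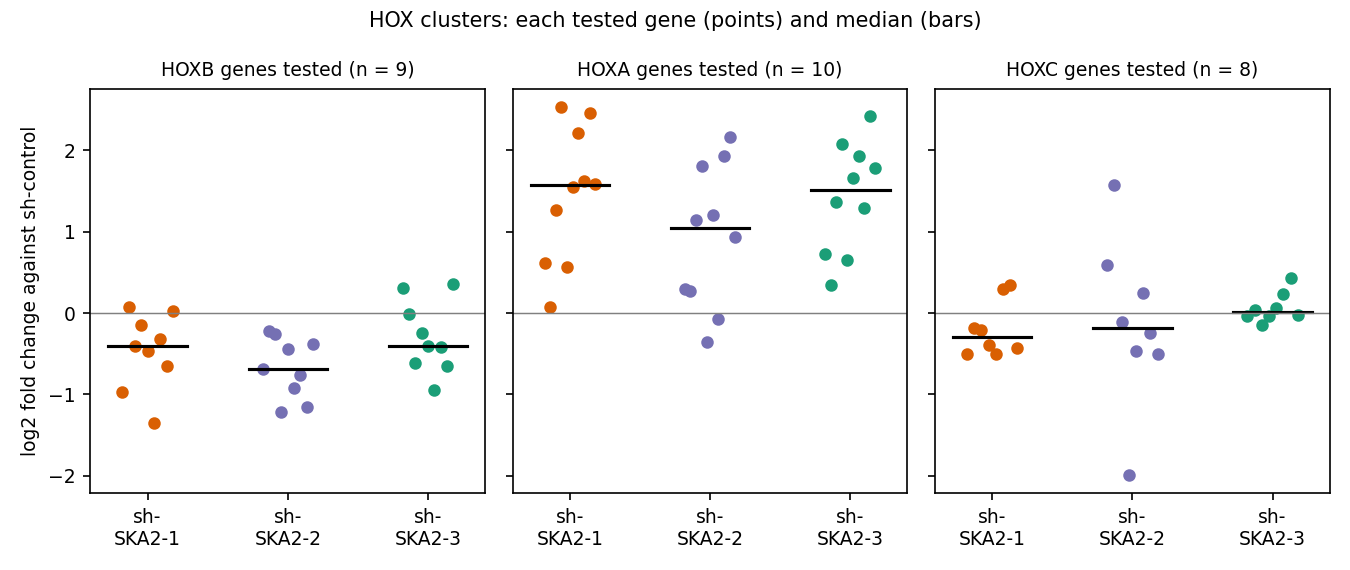
Log2 fold change against sh-control of each tested HOXB, HOXA and HOXC gene (points) with the median (bar), for sh-SKA2-1, sh-SKA2-2 and sh-SKA2-3 from left to right in each panel. The HOXB medians of -0.41, -0.68 and -0.41 lie below 0 and the HOXA medians of 1.57, 1.04 and 1.51 above it, while the HOXC medians lie between -0.30 and 0.01.

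HOXC genes showed no common direction: of 8 tested, 1, 2 and 1 were called higher and 1, 2 and 0 lower, and on the TPM scale 2, 4 and 1 higher and 0, 1 and 0 lower. Their medians were -0.30, -0.18 and 0.01 on counts and 0.03, 0.25 and 0.10 on the TPM scale. HOXC13 fell in sh-SKA2-2 (-1.99 ± 0.23, SE, adjusted p = 1.04e-05 by edgeR) and was -0.39 and -0.04 with the other two hairpins. HOXC8 was higher in sh-SKA2-2 (1.58), and HOXC4 was not called on counts (0.29, 0.25 and 0.23) but was called higher in sh-SKA2-1 and sh-SKA2-2 with the length correction (0.58 and 0.66, adjusted p = 0.00819 and 0.00274). HOXC10 was lower in sh-SKA2-1 (-0.43) and sh-SKA2-2 (-0.51), and neither call held with the length correction. None of the 6 HOXD genes in the table passed the expression filter.

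Protein-coding genes that flank the HOXB cluster were not uniformly lower. Of 16 tested, 8, 9 and 5 were called lower and 2, 4 and 1 higher with sh-SKA2-1, sh-SKA2-2 and sh-SKA2-3, against 4, 4 and 4 lower and 6, 5 and 2 higher on the TPM scale. The medians were -0.24, -0.32 and -0.17 on counts and 0.08, 0.07 and -0.01 on the TPM scale, beside 0.29, 0.33 and 0.12 there over all tested genes. The length correction gave 7, 8 and 6 lower and 3, 6 and 2 higher, with medians of -0.13, -0.31 and -0.08. NFE2L1, a transcription factor for proteasome genes, averaged 326, 469 and 321 CPM in the hairpin lines, against 818 CPM in sh-control (log2 -1.33, -0.80 and -1.35, SE 0.05 each, adjusted p 7.28e-09, 1.03e-07 and 8.24e-09 by edgeR), and on log2(TPM + 1) it was at -0.87, -0.27 and -1.15. CALCOCO2 (-0.81, -0.32 and -0.73), SP2 (-0.44, -0.32 and -0.44) and CDK5RAP3 (-0.64, -0.75 and -0.35) were also called lower with each hairpin. SP2 in sh-SKA2-1 and sh-SKA2-2 and CALCOCO2 in sh-SKA2-2 were not called on the TPM scale. Each of these changes was called lower with the length correction (-0.49, -0.36 and -0.43, adjusted p = 4.76e-05, 0.000248 and 7.36e-06 by edgeR).

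HOX proteins bind DNA together with TALE cofactors such as the MEIS family. Of 10 tested TALE genes, 4, 5 and 4 were called higher and 3, 3 and 2 lower, and on the TPM scale 5, 7 and 4 higher and 1, 2 and 2 lower. TGIF2 averaged 52.3, 61.8 and 48.6 CPM in the hairpin lines, against 28 CPM in sh-control (log2 0.90, 1.14 and 0.80, SE 0.07 each, adjusted p 2.16e-06, 9.03e-08 and 5.79e-06 by edgeR). MEIS1 (0.60, 0.92 and 0.80) was also called higher with each hairpin, the MEIS1 call in sh-SKA2-1 being lost with the length correction. TGIF1, a repressor of the TALE group outside the MEIS family, was called lower (-0.38, -0.47 and -0.51), in sh-SKA2-1 and sh-SKA2-2 not on the TPM scale. The length correction left it called lower, at -0.14, -0.13 and -0.38.

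Genes of chromatin regulators that act at HOX clusters were counted in the same way, giving sh-SKA2-1, sh-SKA2-2 and sh-SKA2-3 in turn, and are to be read against the shares of all tested genes called on each scale, given above. Of 27 Polycomb genes, 13, 11 and 10 were called higher and 10, 10 and 9 lower, and on the TPM scale 16, 16 and 9 higher and 5, 4 and 8 lower. PHC2 (-0.70, -1.14 and -0.56), PCGF1 (-1.43, -1.15 and -0.97) and PHF19 (-0.40, -1.96 and -0.34) were called lower with each hairpin, the PHF19 call in sh-SKA2-1 being lost with the length correction. Of 17 Trithorax and COMPASS genes, 9, 11 and 7 were called higher and 1, 5 and 1 lower, with the length correction 7, 9 and 6 higher and 3, 5 and 2 lower, and on the TPM scale 15, 11 and 8 higher and 0, 2 and 1 lower. NSD1 (0.99, 1.21 and 0.84) and KDM6A (0.58, 1.73 and 0.62) were called higher on counts, on TPM and with the length correction, which left NSD1 at 0.22, 0.21 and 0.44 and KDM6A at 0.22, 1.28 and 0.44, whereas the calls of DOT1L (0.46, 0.87 and 0.22) were lost with the length correction and MLLT3 (0.15, 1.40 and 0.39) turned to -0.34 in sh-SKA2-1. Of 10 CTCF and cohesin genes, 9, 6 and 6 were called higher and none lower, and with the length correction 8, 4 and 7 higher and 1, 2 and 0 lower. Their medians were 0.66, 0.62 and 0.50 on counts and 0.32, 0.10 and 0.33 with the length correction. They included NIPBL (0.90, 1.62 and 0.70), PDS5B (1.09, 1.07 and 0.77), STAG2 (0.93, 1.31 and 0.64) and WAPL (0.76, 1.16 and 0.54), the calls of STAG2 and WAPL in sh-SKA2-3 being lost on the TPM scale. With the length correction NIPBL was at 0.24, 0.76 and 0.36 and WAPL at 0.32, 0.60 and 0.31.

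Retinoic acid and WNT signalling are known inducers of HOX genes. Of 13 tested retinoic acid pathway genes, 5, 6 and 5 were called higher and 4, 5 and 5 lower, and on the TPM scale 8, 7 and 6 higher and 3, 5 and 4 lower. Of all tested genes, 31.5%, 36.6% and 23.6% were called higher and 31.5%, 37.8% and 24% lower on counts. The WNT counts below are to be read against the same shares. CRABP2, which carries retinoic acid to its receptors, averaged 62.7, 22.1 and 51.1 CPM in the hairpin lines, against 114 CPM in sh-control (log2 -0.86, -2.37 and -1.15, adjusted p 0.000661, 1.82e-07 and 0.000112 by edgeR). The retinoic acid-degrading enzyme CYP26A1 was called higher (2.80, 0.79 and 2.78) and its relative CYP26B1 lower (-1.35, -2.47 and -1.02), while RDH10, which makes retinal, was called higher (0.71, 1.34 and 0.65). CDX2, a CDX factor, was too low to be tested. Of 9 tested WNT pathway and target genes, 4, 6 and 5 were called higher and 1, 2 and 2 lower, and on the TPM scale 6, 7 and 5 higher and 0, 2 and 2 lower. AXIN2, a feedback target of WNT signalling, averaged 93.8, 245 and 104 CPM, against 30 CPM in sh-control (log2 1.64, 3.03 and 1.79, adjusted p 7.14e-07, 2.45e-09 and 3.62e-07 by edgeR). NKD1 (1.55, 1.45 and 1.42) was called higher with each hairpin, with 0.54, 0.16 and 0.93 after the length correction, where the call in sh-SKA2-2 was lost. In sh-SKA2-2 and sh-SKA2-3, RNF43 (2.55 and 1.5) was called higher and TCF7 (-0.90 and -0.57) lower, while in sh-SKA2-1 they stood at 0.53 and -0.11 and were not called.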

How the data were processed

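The members and gene lists were chosen with earlier results of these data known. Per the labels' protocols, polyadenylated RNA was fragmented, primed with random hexamers and sequenced on the BGISEQ-500 platform. HISAT, Bowtie2, RSEM, DESeq2 and build GRCh38.p13 appear in the submitters' processing notes, with roles and versions not given in the sources used here. For 12 libraries the authors deposited expected counts, FPKM and TPM for 17303 genes, and 15 columns of group averages were not used. The authors' FPKM and TPM take account of transcript length. All expected counts of the HOXB genes were whole, and those of other genes were rounded.

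Groups came from the sample titles. Genes were kept by edgeR's expression filter (12868 genes), scaled by TMM and fitted with edgeR 4.0.16 (R 4.3.3) in 1 quasi-likelihood model of the 4 lines, with 8 residual degrees of freedom, two-sided tests and Benjamini-Hochberg adjustment over all genes. SE is the absolute log2 fold change divided by the square root of the F statistic, and 95% intervals use a t distribution with 11.6 degrees of freedom. Depth was 14693343 to 16739155 expected counts, so genes with few reads are the least precise. Alternatives were limma 3.58.1 on log2 TPM or FPKM, DESeq2 1.42.0, other scalings and filters, a replicate block (same-number libraries of sh-SKA2-3 and sh-control deviated together, r = 0.895, 0.365 and 0.842, a pairing seen in the data and not stated in the labels), a lowess offset on effective length (counts over FPKM) and leaving out each library. Named genes were every member, up to 4 genes per list with the smallest adjusted p for the mean hairpin change, and the 3 genes most correlated with each member. The fit was tested on simulated data. RefSeq promoters matched 1 of the 10 members and are not described. A few named genes and sequences that this rule selects are not reported here.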

Additional observations from a re-analysis of the deposited data

Results flagged for a closer look

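The effect of SKA2 hairpins on a HOXB gene differed between hairpins in 10 cases, each by edgeR's quasi-likelihood test of one hairpin line against another with Benjamini-Hochberg adjustment over all genes, and with 3 libraries per line. Such calls were common outside the cluster. Of all tested genes, 57.6% were called in sh-SKA2-2 against sh-SKA2-1. The share was 9.45% in sh-SKA2-3 against sh-SKA2-1 and 65.3% in sh-SKA2-3 against sh-SKA2-2. In sh-SKA2-2 against sh-SKA2-1 the log2 differences were -1.068 for HOXB5, -0.499 for HOXB9, -0.449 for HOXB8 and 0.431 for HOXB7, with adjusted p of 2.44e-05, 9.96e-05, 0.000323 and 0.0281. In sh-SKA2-3 against sh-SKA2-1 it was 1.273 for HOXB2 (adjusted p = 0.0445). In sh-SKA2-3 against sh-SKA2-2 they were 0.986 for HOXB2, 0.975 for HOXB5, 0.741 for HOXB13, 0.493 for HOXB9 and 0.347 for HOXB8, with adjusted p of 0.0233, 4.26e-05, 0.0031, 9.53e-05 and 0.00169. In every one of the HOXB5, HOXB8 and HOXB9 cases sh-SKA2-2 was the lower line, though HOXB8 in sh-SKA2-3 against sh-SKA2-2 was not called on log2(TPM + 1) (0.093, adjusted p = 0.235). Leaving out 1 library in turn lost the HOXB7 call in 5 of 12 fits. The HOXB2 call was lost in 9 of 12 fits for sh-SKA2-3 against sh-SKA2-1 and in 4 for sh-SKA2-3 against sh-SKA2-2. The 3 hairpins left SKA2 itself at 24.0, 25.3 and 26.6 CPM, against 120 CPM in sh-control. The summed epithelial markers were also lowest in sh-SKA2-2, at 1630 to 1740 TPM, and the part of this in the differences was not tested.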

How the results depend on the processing

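Leaving out 1 library in turn kept the direction of every called HOXB value. The counts against sh-control ranged from 4 to 6, 5 to 7 and 4 to 6 lower and stayed at 0 higher for sh-SKA2-1, sh-SKA2-2 and sh-SKA2-3. In those fits 26.1% to 34.7%, 34.9% to 39% and 19.1% to 27.8% of all tested genes were called lower. The count higher in sh-SKA2-2 against sh-SKA2-1 ranged from 0 to 1, and in sh-SKA2-3 against sh-SKA2-1 from 0 to 2. The shares of all tested genes called higher there were 24.7% to 32.1% and 0.77% to 19.5%. Comparing only 2 lines at a time gave 0 higher in sh-SKA2-3 against sh-SKA2-1, where 1.15% of all tested genes were called higher. With limma on log2(TPM + 1), 2 genes were higher and 3 lower in sh-SKA2-1, 1 was higher in sh-SKA2-3, and 3 were lower in sh-SKA2-3 against each other hairpin, where the median of all genes moved by -0.19 and -0.22. With a pseudocount of 0.1 these counts were again 2, 3, 1, 3 and 3, and 3 genes were higher in sh-SKA2-3 against sh-SKA2-2. In the same order, with sh-SKA2-1 before sh-SKA2-2, 50.2%, 13.5%, 25%, 10.4% and 44.1% of all tested genes were called on log2(TPM + 1). The shares were 50.3%, 13.4%, 25.7%, 9.43% and 43.6% with a pseudocount of 0.1, where 19.3% were higher in sh-SKA2-3 against sh-SKA2-2. On log2(FPKM + 1), 1 gene was higher in sh-SKA2-3, where 25.9% of all tested genes were called higher. The length offset, alone or with the replicate block, gave 2 genes higher in sh-SKA2-2 against sh-SKA2-1 and 3 lower in sh-SKA2-3 against sh-SKA2-2. The shares of all tested genes there were 33.4% higher and 34.2% lower without the block, and 33.6% and 34.7% with it. HOXB5 in sh-SKA2-1, at -0.15 on counts, turned to 0.23 and 0.234 on the TPM scales. HOXB6 in sh-SKA2-3 against sh-SKA2-2 was 0.04 on counts, -0.197 and -0.198 on the TPM scales, and -0.196 and -0.195 with the length offset without and with the block. The cause was not tested.

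Replicate numbers in the titles were used as a block in one alternative. Over all lines, 4 of 18 same-number pairs deviated together at r over 0.1 (r from -0.477 to 0.895, median -0.074), and 5 of 12 libraries had their closest library of another line under their own number. With the replicate block over all lines 5, 5 and 5 HOXB genes were lower against sh-control, as without it, beside 31.6%, 37.8% and 24.5% of all tested genes. A replicate block in a fit of only sh-SKA2-3 and sh-control, chosen after seeing the data, gave 6 lower and 1 higher. In that fit 35.5% of all tested genes were called lower and 35.9% higher. It added the calls of HOXB5 and HOXB13 and changed no other HOXB call. The 14 to 78 reads per library behind HOXB2, HOXB4 and HOXB13 limit what can be said of them.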
